A study of Mus musculus with 18 samples.

Results

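The expression of 9 mouse genes was followed across 6 groups of cultured macrophages: Cpsf6, Yeats4, Glipr1, Tle6, Kif21b, Gmfg, Tulp4, St3gal5 and Rnf17. They were chosen by measured values, because earlier results of these same data listed them as differing between the genotype labels. They are 9 of 54532 genes in the deposited table and 9 of the 14684 genes with enough reads to be tested. All 9 passed the filter on low counts; 8 of them met its count in every library of both labels, and Rnf17 met it in 8 of 9 knockout-labelled and 9 of 9 floxed-labelled libraries. Because the choice used the difference between labels, that difference is given below as a description with no p-value. Counts of the 9 called between labels appear later beside the share over all genes. They rest on the same values and are not tests of these genes.

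Polyadenylated RNA came from macrophages grown out of tibial marrow of mice aged 2 to 3 months, all of which carried Smad1 alleles flanked by loxP sites. The floxed-labelled groups had those alleles alone (Smad1fl/fl), and the knockout-labelled groups (MyS1KO) also carried LyzM-Cre, a Cre recombinase driven by the lysozyme M gene Lyz2. After serum withdrawal, each label had 3 libraries from cells with no ligand, 3 from cells exposed for 4 h to TGF-β1 at 10 ng/ml, and 3 from cells exposed as long to BMP4 at 50 ng/ml. Separate animals are not named in the labels, so a p-value here covers the spread among libraries only, and some of that spread may be technical.

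Smad1 is a receptor-activated transcription factor of the BMP branch of TGF-β signalling; BMP receptors phosphorylate it, it joins Smad4 and the complex enters the nucleus. TGF-β1 signals mainly through Smad2 and Smad3, and macrophages respond to it within hours. Lyz2 encodes lysozyme, among the most abundant messages of macrophages, and in the widely used LysM-Cre line the recombinase was inserted into this gene. Lyz2 on chromosome 10 would thus mark the Cre insertion of that line, and Smad1 on chromosome 8 marks the floxed locus.

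The 18 libraries held 15153296 to 24639163 counted reads, and a floor of 3 reads corresponds to 0.122 to 0.198 CPM (a read count relative to the library total). Smad1 RNA was at 19.5 to 26.8 CPM in the knockout-labelled and 22.2 to 31.1 CPM in the floxed-labelled libraries over all treatments. Its mean was lower under the knockout label in every treatment. It reached 85.8% of the floxed-labelled mean without ligand, 86.7% after TGF-β1 and 85.3% after BMP4. Unadjusted edgeR p was 0.0097, 0.0184 and 0.00737 in that order. Smad1 values of the labels overlapped after TGF-β1 only. Counts over the whole gene do not show an excised exon, and the difference was not called in any treatment (edgeR adjusted p 0.13 untreated, 0.278 with TGF-β1 and 0.44 with BMP4). Lyz2 was at 13449 to 17786 CPM in the knockout-labelled libraries. In the floxed-labelled libraries numbered 2 and 3 it was at 8118 to 9872 CPM, and in those numbered 1 at 62.1 CPM untreated, 74.3 CPM with BMP4 and 37.6 CPM with TGF-β1. The floxed-labelled libraries numbered 1 therefore stand apart, and Lyz2 RNA was lower where the labels name no Cre. The cause, and whether each label matches its cells, was not tested. Without the floxed-labelled libraries numbered 1, Lyz2 was higher in knockout-labelled libraries by log2 0.71 (untreated), 0.75 (TGF-β1) and 0.78 (BMP4) (edgeR adjusted p 3.04e-05, 1.72e-05 and 8.37e-06). Directions below are between groups as labelled, and values are repeated without those 3 libraries. Summed macrophage markers reached 13147 to 15292 CPM in floxed-labelled and 12789 to 16083 CPM in knockout-labelled libraries, with none of the 14 at 0. The 8 monocyte markers summed to 716 to 947 CPM untreated, 627 to 901 with TGF-β1 and 674 to 963 with BMP4 in floxed-labelled libraries. The knockout-labelled sums were lower, without overlap within any treatment: 506 to 608, 447 to 618 and 464 to 673 CPM. Most of each sum was Ccr2 and F13a1, at 402 and 145 CPM in the untreated knockout-labelled means against 593 and 188 CPM floxed-labelled. Over the 7 that could be tested, the median log2 was -0.56, -0.47 and -0.40. With BMP4, Fn1 (log2 0.47), Treml4 (0.43) and Ly6c2 (0.09) went the other way. By edgeR 3, 5 and 2 of the 7 had an unadjusted p under 0.05, and DESeq2 called 0, 1 and 0. None of the 8 was at 0, and their part in the differences below was not tested. The ranges for the other marker lists, floxed-labelled before knockout-labelled, were 398 to 507 and 347 to 446 CPM for neutrophils, 6.31 to 12.1 and 5.55 to 12.1 CPM for dendritic cells, 98.3 to 121 and 97.4 to 121 CPM for osteoclasts (Calcr at 0), and 0.357 to 15.9 and 0.0533 to 4.74 CPM for stromal cells. Those ranges span all treatments. Within treatments the neutrophil sums overlapped with BMP4 only. Untreated they were 410 to 426 CPM floxed-labelled and 347 to 375 CPM knockout-labelled, and with TGF-β1 447 to 507 and 361 to 446 CPM. Among all these markers edgeR called 1 between labels, Cd14, with TGF-β1 (log2 -0.42, adjusted p 0.0306, and 0.06 without the floxed-labelled libraries numbered 1).

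Of the 9 genes, 4 lie on chromosome 10 and none on chromosome 8. Positions follow the authors' table, on mm10, and distances run between gene starts, negative toward lower coordinates. Yeats4 (chr10:117215221-117224507, minus strand) starts -57.8 kb from Lyz2 (chr10:117277331-117282321, minus strand), and Cpsf6 (chr10:117344673-117380015, minus strand) starts 97.7 kb from it. Lyz1 lies between Lyz2 and Cpsf6. Glipr1 (chr10:111985448-112002631, minus strand) starts -5.28 Mb from Lyz2, and Tle6 (chr10:81590904-81601073, minus strand) -35.7 Mb from it. The other 5 are on other chromosomes: Kif21b at chr1:136131389-136177998, Gmfg at chr7:28437447-28448233, Tulp4 at chr17:6106437-6251128, St3gal5 at chr6:72097592-72154571 and Rnf17 at chr14:56402581-56525032, all on the plus strand.

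The start-site sequences of Cpsf6 and Yeats4 are shown because these genes flank Lyz2 and fell together under TGF-β1 in the floxed-labelled groups, and that of St3gal5 because it had the highest BMP4 response among the 9. Each is the RefSeq window of GRCm38.p6 from 250 bases before to 50 after a transcript start, read 5′ to 3′ on the gene's strand. Capitals mark GGCGCC, the GC-rich element described for Smad1 and Smad5.
Cpsf6: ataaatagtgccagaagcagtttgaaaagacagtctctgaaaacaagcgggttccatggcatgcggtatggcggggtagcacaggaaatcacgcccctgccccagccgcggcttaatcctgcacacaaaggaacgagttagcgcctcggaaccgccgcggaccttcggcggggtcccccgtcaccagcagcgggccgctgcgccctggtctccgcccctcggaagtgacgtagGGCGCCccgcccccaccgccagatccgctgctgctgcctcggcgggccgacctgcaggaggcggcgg
Yeats4: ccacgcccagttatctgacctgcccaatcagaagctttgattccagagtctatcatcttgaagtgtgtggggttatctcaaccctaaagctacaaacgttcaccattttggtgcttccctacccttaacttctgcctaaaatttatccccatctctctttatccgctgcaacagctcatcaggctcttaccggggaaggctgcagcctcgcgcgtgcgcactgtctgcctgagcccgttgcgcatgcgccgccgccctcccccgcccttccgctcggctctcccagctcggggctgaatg
St3gal5: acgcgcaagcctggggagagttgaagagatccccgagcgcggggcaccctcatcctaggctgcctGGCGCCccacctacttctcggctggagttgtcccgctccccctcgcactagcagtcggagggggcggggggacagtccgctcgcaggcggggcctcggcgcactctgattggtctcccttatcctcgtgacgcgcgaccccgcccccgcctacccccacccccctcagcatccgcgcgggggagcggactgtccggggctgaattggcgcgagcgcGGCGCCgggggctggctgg
The windows are chr10:117376924-117377223 (minus strand) for Cpsf6, chr10:117224458-117224757 (minus strand) for Yeats4 and chr6:72097358-72097657 (plus strand) for St3gal5. RefSeq windows were matched for 6 of the 9 genes: these 3, Gmfg, Tle6 and Tulp4. GGCGCC, which reads the same on both strands, occurred 2 times in the St3gal5 window, 1 time in that of Cpsf6 and 2 times in 1 of the 2 Tulp4 windows, and in none of the others. It occurs in 11.9% of all 32851 promoter windows of the same length. GTCTAGAC, the palindromic element described for Smad3 and Smad4, was in none of the windows and is in 0.213% of all. The G and C content was 66.3% for Cpsf6, 56.3% for Yeats4 and 72.7% for St3gal5, against a median of 52.7% over all windows. A match describes letters only.

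Cpsf6, a subunit of the cleavage factor that selects poly(A) sites, was lower in the knockout-labelled libraries, and more so untreated and with BMP4 than with TGF-β1. Untreated, it was at 91.6, 83.6 and 91.6 CPM in knockout-labelled and 113, 120 and 111 CPM in floxed-labelled libraries. BMP4-treated libraries held 95.7, 85.6 and 96.2 CPM against 130, 123 and 123 CPM. With TGF-β1 they were 85.8, 85.4 and 83.3 CPM against 88.5, 89.2 and 92.9 CPM. All knockout-labelled values lay below all floxed-labelled values within each treatment, but with TGF-β1 the nearest libraries were 85.8 and 88.5 CPM. The knockout-labelled mean was 77.5% of the floxed-labelled mean untreated, 94.1% with TGF-β1 and 73.7% with BMP4 (log2 -0.37, -0.09 and -0.44, SE 0.05 each). In bulk RNA, fewer cells of a type and less RNA per cell cannot be told apart.

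Yeats4, a reader of acetylated histones in the TIP60 and SRCAP chromatin complexes, had the same shape at a smaller size. Untreated, it was at 48.7, 53.6 and 52.8 CPM in knockout-labelled and 61.4, 64.9 and 60.8 CPM in floxed-labelled libraries. BMP4-treated libraries held 55.3, 53.3 and 51.5 CPM against 67.3, 66.2 and 61.7 CPM. With TGF-β1 they were 48.8, 49.4 and 49.9 CPM against 47.8, 55.3 and 55.8 CPM. The labels were separate untreated and with BMP4 and overlapped with TGF-β1, where the floxed-labelled library numbered 1 was the lowest of the 6. The knockout-labelled mean was 82.9%, 93.2% and 82.0% of the floxed-labelled mean in the order untreated, TGF-β1 and BMP4. Across the 18 libraries, after centring within each treatment, Cpsf6 and Yeats4 had Pearson r = 0.87 on log2 CPM; centred within each group, r was 0.15. The libraries share the label difference that chose both genes, so the first value is a description.

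Glipr1, a secreted protein of the CAP superfamily, was the most abundant of the 9 per length, with a median of 240 FPKM (fragments per kilobase of gene, scaled to library size). Its untreated level was 344, 358 and 368 CPM in knockout-labelled and 438, 399 and 405 CPM in floxed-labelled libraries. With TGF-β1 it was at 318, 320 and 330 CPM against 372, 381 and 372 CPM. BMP4-treated libraries held 385, 376 and 362 CPM against 422, 410 and 414 CPM. The labels were separate in all 3 treatments, and the ratio varied little: 86.2%, 86.1% and 90.1% of the floxed-labelled mean. Krr1, which overlaps Glipr1 on the opposite strand, was not called (log2 0.02, 0.01 and -0.08; edgeR adjusted p 0.886, 0.952 and 0.764).

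Tle6, a Groucho/TLE family member known from the maternal protein complex of oocytes, was separate only with TGF-β1. There it was at 17.2, 17.9 and 17.8 CPM in knockout-labelled and 12.6, 12.8 and 12.98 CPM in floxed-labelled libraries, 138% of the floxed-labelled mean (log2 0.46, SE 0.09). Untreated, the values of 19.9, 21.2 and 16.5 CPM overlapped 18.3, 16.1 and 16.8 CPM. With BMP4, 18.6, 22.1 and 20.0 CPM overlapped 19.2, 18.7 and 20.6 CPM. A difference in every treatment was therefore not seen for Tle6. Tle2, its neighbour -26.5 kb away, was not called (log2 0.20, -0.10 and 0.18; edgeR adjusted p 0.571, 0.864 and 0.837).

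Kif21b, a kinesin-4 motor that regulates microtubule growth, was higher in the knockout-labelled libraries in each treatment. Untreated libraries held 121, 118 and 121 CPM in this label and 94.0, 95.6 and 99.5 CPM in the other. TGF-β1 libraries held 347, 353 and 339 CPM against 301, 298 and 291 CPM. BMP4 libraries held 113, 121 and 119 CPM against 99.6, 94.5 and 99.3 CPM. The labels were separate in all 3 treatments, with the knockout-labelled mean at 125%, 117% and 120% of the floxed-labelled mean (log2 0.32, 0.22 and 0.27, SE 0.04 each). Camsap2, its neighbour 215 kb away, was at log2 0.16, 0.12 and 0.10 and was not called (edgeR adjusted p 0.155, 0.358 and 0.702).

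Gmfg, the glia maturation factor of blood cells that debranches Arp2/3 actin networks, was lower in the knockout-labelled libraries. Untreated, it was at 103, 116 and 106 CPM against 132, 140 and 131 CPM. TGF-β1 libraries held 107, 95.0 and 97.0 CPM against 113, 126 and 129 CPM. With BMP4 it was at 126, 121 and 113 CPM against 128, 133 and 132 CPM. No values crossed between labels, although with BMP4 the nearest libraries were 126 and 128 CPM. The ratios were 80.8%, 81.5% and 91.1%. Samd4b overlaps Gmfg on the opposite strand and was not called (log2 0.18, 0.01 and 0.13; edgeR adjusted p 0.0931, 0.957 and 0.595).

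Tulp4, a tubby-like protein with a SOCS box, was higher in the knockout-labelled libraries untreated and with TGF-β1. Untreated libraries held 117, 115 and 122 CPM against 99.3, 96.8 and 105 CPM. TGF-β1 libraries held 139, 136 and 138 CPM against 116, 113 and 113 CPM. With BMP4, 105, 113 and 104 CPM overlapped 97.0, 96.3 and 105 CPM. The ratios were 118%, 121% and 108%. Gtf2h5, its neighbour -26.7 kb away, was separate and lower in all 3 treatments (log2 -0.24, -0.19 and -0.21). It was not called (edgeR adjusted p 0.0618, 0.214 and 0.42).

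St3gal5, the sialyltransferase that makes ganglioside GM3, was higher in the knockout-labelled libraries in each treatment and had the largest SE, 0.15 on the log2 scale, after Rnf17. Untreated, it was at 59.0, 55.2 and 59.6 CPM against 42.0, 44.6 and 47.7 CPM in floxed-labelled libraries. With TGF-β1 it was at 69.0, 54.4 and 67.9 CPM against 29.2, 43.9 and 42.1 CPM. With BMP4 it was at 80.2, 71.2 and 100.2 CPM against 40.4, 59.7 and 53.3 CPM. The labels were separate in all 3 treatments, and the library numbered 1 was the lowest floxed-labelled value each time. The knockout-labelled mean was 129%, 166% and 164% of the floxed-labelled mean, and 126%, 148% and 148% without the floxed-labelled libraries numbered 1. A same-strand gene model inside St3gal5, Gm29438, and an antisense one, 4933431G14Rik, were higher in the knockout-labelled means and not called (log2 1.01, 0.91 and 0.21, and 1.12, 1.14 and 0.70; lowest edgeR adjusted p 0.0683 and 0.0693). Whether reads were counted by strand is not given in the sources used here, so reads of overlapping models cannot be told apart.

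Rnf17, a Tudor-domain protein of male germ cells, was close to the limit of detection, with 10 to 22 reads in knockout-labelled and 29 to 61 reads in floxed-labelled libraries. Its median was 0.219 FPKM, the lowest of the 9. Untreated, it was at 0.725, 0.915 and 1.38 CPM against 2.53, 1.37 and 2.29 CPM. With TGF-β1 it was at 1.14, 0.762 and 0.906 CPM against 2.12, 2.28 and 1.88 CPM. BMP4 libraries held 0.616, 0.515 and 0.788 CPM against 2.62, 2.22 and 2.72 CPM. The labels overlapped untreated and were separate with either ligand. The ratios were 48.9%, 44.6% and 25.4% (log2 -1.03, -1.17 and -1.97, SE 0.28 each), and the SE was the largest of the 9. Of 18 other Tudor-domain and piRNA-pathway genes, 8 could be tested and Tdrd1, Piwil1, Mael and Mov10l1 had no read in any library.

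**Figure D1:**
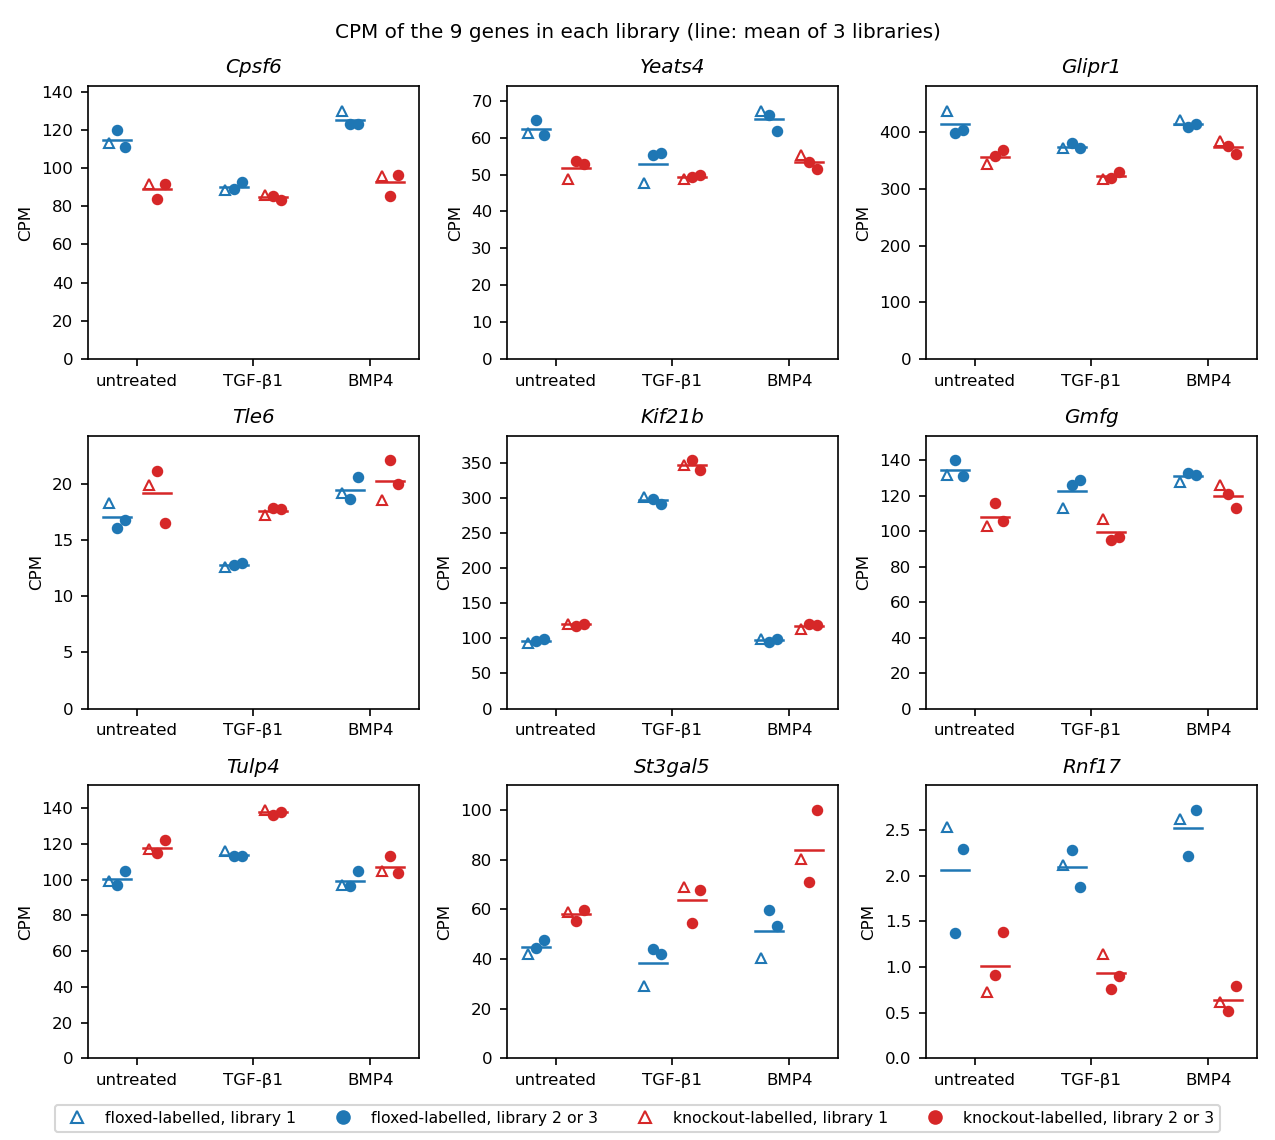
CPM (linear axis from 0) of each of the 9 genes in the 18 libraries by treatment, with floxed-labelled libraries in blue, knockout-labelled in red, triangles for libraries numbered 1 and a line at each mean of 3 libraries. Kif21b, for example, is at 113 to 121 CPM with BMP4 in knockout-labelled and 94.5 to 99.6 CPM in floxed-labelled libraries, and Tle6 overlaps between labels except with TGF-β1.

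Each gene had the same sign in all 3 treatments: Kif21b, Tulp4, St3gal5 and Tle6 were higher and the other 5 lower in knockout-labelled libraries. For Tle6 with BMP4 the difference was within its error (log2 0.05, SE 0.09) and gives no direction. Untreated, 3 of the 9 were separate and higher and 4 separate and lower, where 11.3% and 9.24% of all genes tested were. With TGF-β1 the counts were 4 and 4, against 9.2% and 10% of all genes, and with BMP4 2 and 5, against 6.96% and 6.22%. Separation in the same direction in all 3 treatments held for 5 of the 9 (Cpsf6, Glipr1, Kif21b, Gmfg and St3gal5) and for 295 genes in all, 2.01% of those tested. By edgeR, untreated, 2 of the 9 were called higher and 4 lower (1.29% and 1.1% of all genes); with TGF-β1 4 and 2 (0.136% and 0.252%); with BMP4 1 and 2 (0.00681% and 0.0204%). Kif21b was called in all 3 treatments, as was 1 further gene, Gsta3, a glutathione transferase at log2 -0.71, -0.70 and -0.59; together they are 0.0136% of the genes tested. Without the floxed-labelled libraries numbered 1, both passed untreated only (for Gsta3, edgeR adjusted p 0.0298, 0.06 and 0.0818). All of these counts are of the values that chose the genes. Over all treatments at once, the 9 knockout-labelled and 9 floxed-labelled values of each gene overlapped, for all 9 genes.

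In the 15 libraries left without the floxed-labelled libraries numbered 1, fewer of the 9 were called by edgeR. They were 2 untreated (Cpsf6 lower and Kif21b higher), 0 with TGF-β1 and 1 with BMP4 (Cpsf6). Of the 15031 genes tested, 0.259%, 0.0133% and 0.0266% were called. These counts too come from the label differences that chose the genes. The sizes of the differences moved less. Cpsf6 was at 77.0%, 93.2% and 75.0%, Kif21b at 123%, 118% and 122%, and Rnf17 at 55.1%, 44.8% and 25.9% of the floxed-labelled mean. The exception in Lyz2 had no counterpart in Cpsf6 or Kif21b: library 1 was at 98.1%, 97.2% and 105% of the mean of libraries 2 and 3 for Cpsf6, and at 96.4%, 102% and 103% for Kif21b. St3gal5 was at 91.0%, 68.0% and 71.5% of that mean. Rnf17 was at 138% and Tle6 at 111% untreated, and Yeats4 was at 86.0% and Gmfg at 88.5% with TGF-β1. The remaining values of Rnf17, Tle6, Yeats4 and Gmfg, and all those of Glipr1 and Tulp4, lay between 96.5% and 109%. Libraries with the same number deviated together across the treatments of a label, so the 3 treatments are not independent repeats of the comparison.

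**Figure D2:**
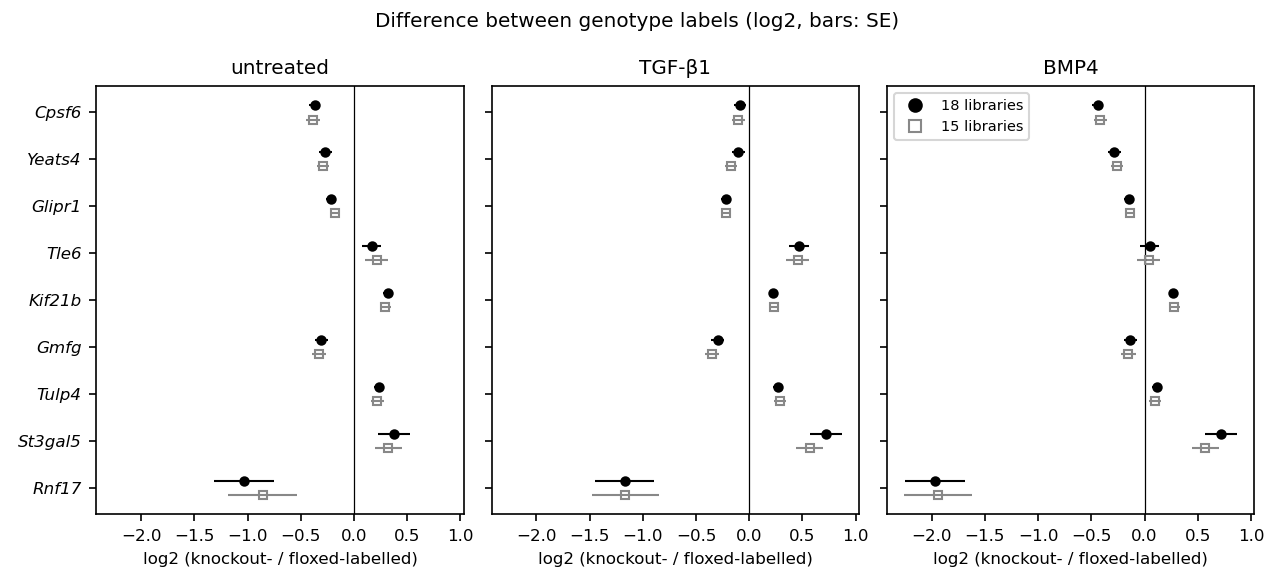
Log2 ratio of knockout-labelled to floxed-labelled libraries for the 9 genes in each treatment, with SE bars, from all 18 libraries (black circles) and from 15 without the floxed-labelled libraries numbered 1 (grey squares). Cpsf6 is at -0.37 untreated, -0.09 with TGF-β1 and -0.44 with BMP4, and Rnf17 has the widest bars.

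The neighbourhood of Lyz2 was then compared with the rest of the genome, leaving out the 9 genes and Lyz2 itself. Of the 14 genes tested within 1 Mb, edgeR called 1 untreated, Lyz1, and 0 with TGF-β1 or BMP4 (4, 3 and 3 had an unadjusted p under 0.05, and 2, 0 and 0 passed with DESeq2). Lyz1, the lysozyme gene of the gut, was at log2 -1.01 untreated (SE 0.22, edgeR adjusted p 0.0254, and 0.0346 without the floxed-labelled libraries numbered 1) and at -0.58 and -0.50 with TGF-β1 and BMP4. Its sequence is close to that of Lyz2 and its level, 5.08 to 12.98 CPM, is far below it. In the floxed-labelled libraries numbered 1, Lyz1 was at 9.34 CPM untreated, 5.57 with TGF-β1 and 9.27 with BMP4. Lyz2 was at 62.1, 37.6 and 74.3 CPM in those libraries. Whether any Lyz1 reads came from Lyz2 was not tested. Cct2, a chaperonin subunit -0.219 Mb from Lyz2, was separate and lower in all 3 treatments (log2 -0.15, -0.15 and -0.11) and was not called (edgeR adjusted p 0.107, 0.183 and 0.577). Frs2, next to Yeats4 on the side away from Lyz2, was at log2 0.03, 0.06 and -0.04, and Mdm2, beyond Cpsf6, at -0.13, -0.07 and -0.08. Mdm1 was at -0.49, -0.28 and -0.49 (edgeR adjusted p 0.0795, 0.499 and 0.377). The other genes within 1 Mb (Cnot2, Rab3ip, Cpm, Slc35e3, Nup107, Rap1b and 3 noncoding genes) were not called in any treatment. Counted by separation, 5 of the 14 were separate untreated (35.7%), 3 with TGF-β1 (21.4%) and 5 with BMP4 (35.7%), against 20.6%, 19.3% and 13.2% of genes on other chromosomes; the difference between these shares was not tested.

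Within 10 Mb of Lyz2, 2 of 78 genes were called untreated (2.56%), against 2.40% on other chromosomes. With TGF-β1 it was 1 of 78, Mon2 (log2 0.21, edgeR adjusted p 0.0421; 0.19 and 0.19 without the floxed-labelled libraries numbered 1), and with BMP4 0 of 78 (8 at an unadjusted p under 0.05, 0 by DESeq2). On the whole of chromosome 10, 16 of 700 genes (2.29%, the described genes included) were called in at least 1 treatment, within the range of 1.68% to 3.66% over all chromosomes. Near Smad1, 0 of 10 genes within 1 Mb were called by edgeR in any treatment (1, 2 and 0 had an unadjusted p under 0.05, and 0 passed with DESeq2). Within 5 Mb of Smad1 the untreated count was 4 of 65 (6.15%), and within 10 Mb 10 of 228 (4.39%), against 2.31% on other chromosomes. With TGF-β1 these counts were 1 and 2 (1.54% and 0.877%, against 0.346%). With BMP4 both were 0 (5 and 19 at an unadjusted p under 0.05, and 0 and 1 by DESeq2). The difference between the shares was not tested. None of the 9 genes lies within 10 Mb of Smad1.

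**Figure D3:**
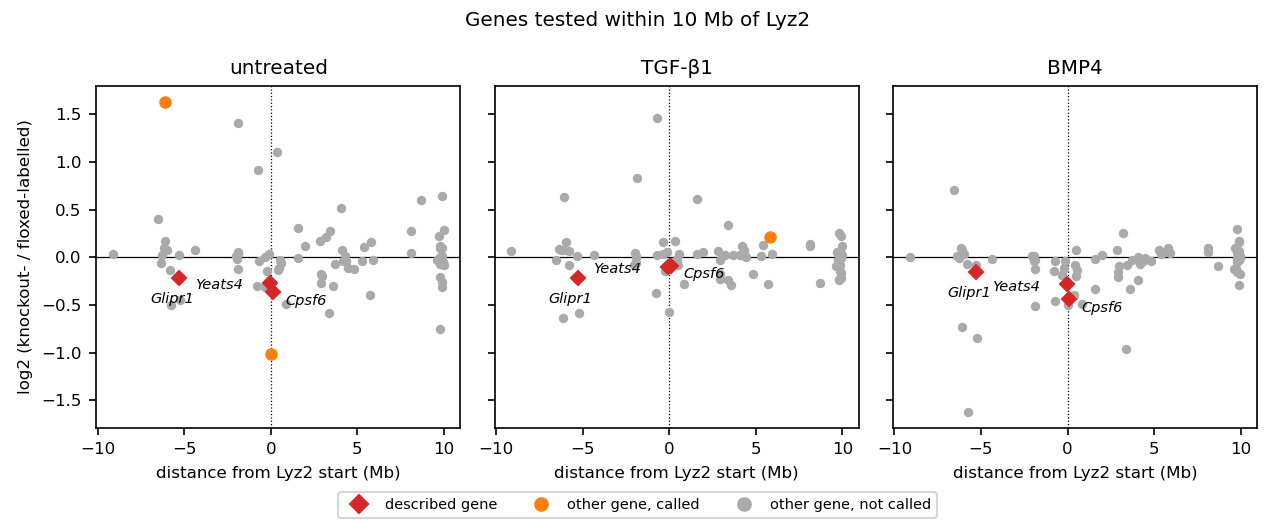
Log2 ratio of knockout-labelled to floxed-labelled libraries against distance from the Lyz2 start (Mb) for the genes tested within 10 Mb, by treatment; red diamonds are Cpsf6, Yeats4 and Glipr1, orange points other genes called by edgeR, grey points the rest. Of the 78 other genes, 2 are called untreated, 0 with BMP4 and 1 with TGF-β1.

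The response to each ligand within a label was not itself used to choose the genes and was tested. It shares libraries with the label differences that were, so its p-values are not independent of the choice. TGF-β1 raised Kif21b in both labels: log2 1.62 in floxed-labelled (SE 0.04, edgeR adjusted p 1.53e-15) and 1.53 in knockout-labelled libraries (SE 0.04, edgeR adjusted p 3.88e-15), 308% and 288% of the untreated mean. Tulp4 also rose in both, by log2 0.19 and 0.22 (edgeR adjusted p 0.00526 and 0.00128). Glipr1 fell in both, by 0.14 on the log2 scale (edgeR adjusted p 0.0172 and 0.0162). In the floxed-labelled libraries 2 of the 9 rose and 4 fell, where 17% and 16% of all genes did; in the knockout-labelled libraries 2 rose and 1 fell, against 17.6% and 17.1%.

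Cpsf6, Yeats4 and Tle6 passed the test in the floxed-labelled libraries and not in the knockout-labelled ones. The same libraries entered the label differences that chose these genes, so this contrast of calls is a description. Cpsf6 fell by 0.35 on the log2 scale (edgeR adjusted p 3.26e-05) in the first and was at -0.07 in the second (edgeR adjusted p 0.372). Yeats4 fell by 0.23 (edgeR adjusted p 0.00468) and was at -0.07 (edgeR adjusted p 0.458). Tle6 fell by 0.42 (edgeR adjusted p 0.00135) and was at -0.12 (edgeR adjusted p 0.354). The knockout-labelled minus floxed-labelled response was 0.28 for Cpsf6 (SE 0.08), 0.17 for Yeats4 (SE 0.09) and 0.30 for Tle6 (SE 0.13); it is made of the same contrasts that chose the genes and so carries no test. For Glipr1, Gmfg and Tulp4 that difference was -0.0015 (SE 0.06), 0.01 (SE 0.09) and 0.04 (SE 0.07). Without the floxed-labelled libraries numbered 1, the floxed-labelled response was -0.35 for Cpsf6 (edgeR adjusted p 0.00107), -0.18 for Yeats4 (0.0427) and -0.36 for Tle6 (0.0366). In that fit Tulp4 (0.16, edgeR adjusted p 0.0727) and Glipr1 (-0.10, edgeR adjusted p 0.19) no longer passed. Glipr1 also missed the threshold without floxed-labelled untreated library 1 (edgeR adjusted p 0.108), and in the knockout-labelled libraries without untreated library 2 (0.0593) or 3 (0.0786) or TGF-β1 library 1 (0.0856) or 2 (0.0759).

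BMP4 changed none of the 9 past the threshold in either label by edgeR, with 2 floxed-labelled and 3 knockout-labelled genes at an unadjusted p under 0.05 and 0 and 1 called by DESeq2. Of all genes, 0% were called in the floxed-labelled libraries (1103 at an unadjusted p under 0.05, 14 called by DESeq2) and 0.572% in the knockout-labelled; with library number as a block within each label these were 0.361% and 3.21%. The highest value was that of St3gal5: log2 0.53 in the knockout-labelled libraries (SE 0.15, edgeR adjusted p 0.108) and 0.19 in the floxed-labelled (edgeR adjusted p 0.815). Its 3 knockout-labelled BMP4 libraries were all above the 3 untreated ones. In that blocked fit this response passed (log2 0.52, SE 0.08, edgeR adjusted p 2.55e-04), as did the TGF-β1 responses of St3gal5 (-0.23, edgeR adjusted p 0.0209) and Gmfg (-0.13, edgeR adjusted p 0.0406) in the floxed-labelled libraries. Rnf17 was at -0.64 in knockout-labelled and 0.29 in floxed-labelled libraries (SE 0.32 and 0.24, edgeR adjusted p 0.443 and 0.827).

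**Figure D4:**
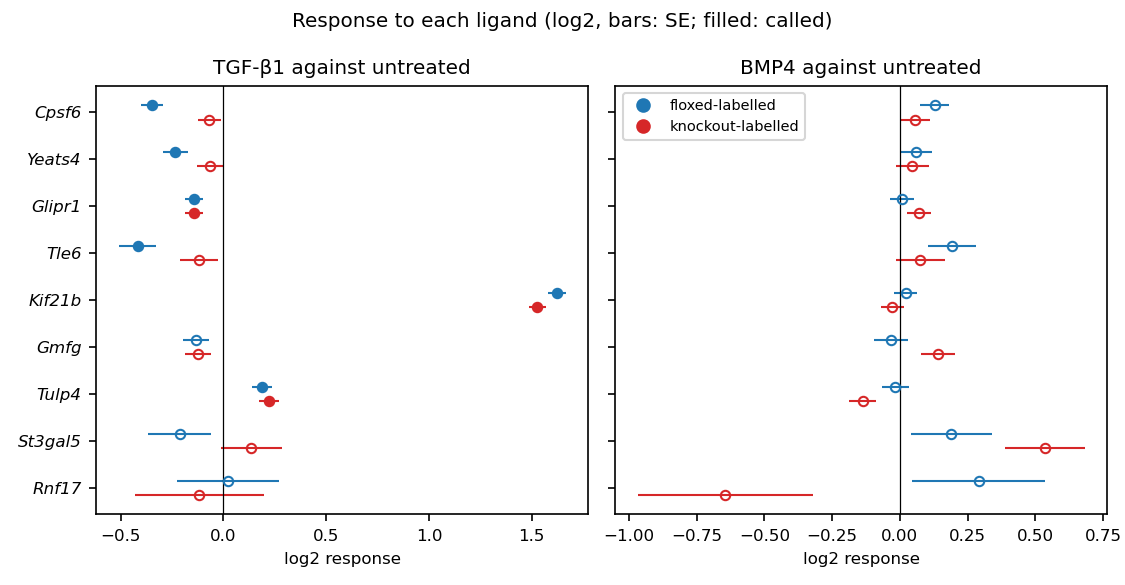
Log2 response to TGF-β1 and to BMP4 against untreated for the 9 genes in floxed-labelled (blue) and knockout-labelled (red) libraries, with SE bars; filled points were called by edgeR. Kif21b stands at 1.62 and 1.53 with TGF-β1, and no point is filled with BMP4.

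Other genes of the same pathways and families were tested between labels. A list of 23 genes held subunits of the TIP60 and SRCAP complexes in which Yeats4 works, and Yeats2, Mllt1 and Mllt3, YEATS-domain paralogues from other complexes. Of these 23, edgeR called 2 higher and 1 lower untreated: the remodelling ATPases Ep400 (log2 0.22, adjusted p 0.0334) and Srcap (0.68, adjusted p 0.0193) and the SRCAP subunit Znhit1 (-0.23, adjusted p 0.0444). None was called by edgeR or DESeq2 with TGF-β1 or BMP4 (4 and 0 at an unadjusted p under 0.05). The list's median was log2 0.02 untreated, against 0.0025 over all genes. Of 18 other 3′ end processing factors, partners of Cpsf6, neither tool called any in any treatment (4, 4 and 1 at an unadjusted p under 0.05 by edgeR). Cpsf7 and Nudt21, which share its cleavage factor, were at log2 0.01 and -0.09 untreated. Of 20 ganglioside genes around St3gal5, neither tool called any (1, 3 and 5 at an unadjusted p under 0.05 by edgeR). Ugcg, which makes the precursor glucosylceramide, was at 0.01, -0.18 and -0.16, and B4galnt1, which uses GM3, at 0.01, -0.14 and 0.06.

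Of 23 genes of the Arp2/3 network that Gmfg acts on, 1 was called by edgeR, the subunit Arpc3, untreated (log2 -0.20, adjusted p 0.0332), and 3 by DESeq2 (8, 4 and 1 at an unadjusted p under 0.05 by edgeR). The list's median was -0.06 untreated, and the paralogue Gmfb was at -0.08, -0.08 and -0.13. Of 7 tubby-family and SOCS-box partner genes tested, 1 was called by edgeR, the ubiquitin ligase subunit Rnf7, untreated (log2 -0.26, adjusted p 0.0229; 4, 3 and 3 at an unadjusted p under 0.05). Of 27 genes tested, the other kinesins and Trim3, a ubiquitin ligase known to act on Kif21b, edgeR called 0 in each treatment (2, 4 and 3 at an unadjusted p under 0.05), and DESeq2 1, 2 and 0. Of 10 TLE-family and partner genes, 3 CAP-superfamily genes and 8 Tudor-domain and piRNA-pathway genes, neither tool called any (in that order, 3, 1 and 1 had an unadjusted p under 0.05 by edgeR untreated; the BMP4 counts were 1, 0 and 0 and the TGF-β1 counts 1, 1 and 1). Of 10 Smad and Id genes, 1 was called, Id2, an inhibitor of basic helix-loop-helix factors and a BMP target, with TGF-β1 (log2 0.39, edgeR adjusted p 0.0186). DESeq2 called 0, 1 and 0 of the 10, and 3, 6 and 5 of the 10 had an unadjusted p under 0.05 by edgeR. Untreated, Id2 was separate in the other direction (log2 -0.27, edgeR adjusted p 0.0648), and with BMP4 it was at 0.26 (edgeR adjusted p 0.315). Id3, a further BMP target of that family, was at 0.15, 1.32 and 1.13 (edgeR adjusted p 0.947, 0.0994 and 0.446). Without the floxed-labelled libraries numbered 1, none of the 6 genes called in these lists kept its call by edgeR. The edgeR adjusted p was 0.109 for Ep400, 0.102 for Srcap, 0.127 for Znhit1, 0.131 for Arpc3, 0.0577 for Rnf7 and 0.105 for Id2. Their log2 differences moved less, to 0.23, 0.66, -0.25, -0.18, -0.29 and 0.33 in that order. Over all genes, edgeR calls between labels fell in that fit from 351 to 39 untreated and from 57 to 2 with TGF-β1.

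The genes with the most similar pattern to each of the 9 were found by the size of Pearson r over 18 libraries, on log2 CPM centred within treatment, among the 12240 genes that averaged 1 CPM or more. All points share the label difference, so r is a description. For Cpsf6 they were Cic (-0.94), Camsap3 (-0.91) and Klf13 (-0.90), and for Yeats4 Rpl38-ps2 (0.93), Slc9b2 (-0.91) and Usmg5 (0.91). For Glipr1 they were Chmp3 (0.96), Rps3a1 (0.96) and the Lyz2 neighbour Cct2 (0.95). For Kif21b they were Arap3 (0.96), Nav1 (0.95), which starts -0.524 Mb from it, and Rpl5 (-0.93). For Gmfg they were Nop53, Rps15 and Rpl8 (0.94, 0.93 and 0.92), which serve the ribosome. For Tulp4 they were Psmb4 (-0.95), Denr (-0.94) and Cdc25b (0.93), and for St3gal5 Usp25 (0.95), Nr1h3 (0.92), the liver X receptor alpha, and Zfp992 (-0.92). For Tle6 they were Fam162a (-0.91), Pwp1 (-0.87) and Cd14 (-0.84), and for Rnf17 Eloc, Arpp19 and Ostc (0.91, 0.90 and 0.89). Centred within group, r was 0.83 for Glipr1 with Cct2 and for St3gal5 with Usp25, and 0.30 for Kif21b with Nav1.

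Per length, the order of median levels was Glipr1 (240 FPKM), Gmfg (43.5), Yeats4 (38.2), St3gal5 (20.8), Kif21b (9.8), Cpsf6 (8.7), Tulp4 (6.22), Tle6 (5.84) and Rnf17 (0.219). Glipr1, at 205 to 282 FPKM, and Rnf17, at 0.082 to 0.433 FPKM, stood clear of the rest. The ranges of Gmfg (33.4 to 49.5) and Yeats4 (33.4 to 47.3) overlapped, as did those of St3gal5 (11.0 to 38.1), Kif21b (7.68 to 28.7) and Cpsf6 (7.9 to 12.3) in turn, and those of Tulp4 (5.3 to 7.68) and Tle6 (4.03 to 7.11).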

How the data were processed

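Polyadenylated RNA of 18 libraries was sequenced as paired reads. Per the submitters' processing notes, TopHat2 2.0.9, HTSeq 0.6.1 and Cufflinks 2.1.1 were used with build mm10 (GRCm38.p6). The deposited count columns are raw reads per gene, per the file headers, and the FPKM columns are the authors' length-scaled values, used here only to compare levels between genes. Gene lengths and coordinates are those the authors deposited in the same table. A further 78 per-sample columns were not used.

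The tools were edgeR 4.0.16 with limma 3.58.1, in R 4.3.3. After TMM scaling (factors 0.978 to 1.02) and filterByExpr, a quasi-likelihood model held the mean of each group, fitted to the 18 libraries together (12 residual degrees of freedom, biological coefficient of variation 8.86%). Adjusted p-values are two-sided, by Benjamini-Hochberg over the 14684 genes tested, and a gene was called under 0.05. CPM values use TMM factors except in floors, which cover counting error only; log2 CPM for correlations has a prior count of 2. No pair of libraries in a group agreed within sampling noise (3.56 to 27.4, as chi-square over its degrees of freedom). The fit was tested on simulated counts, for the untreated labels. Of 100 genes changed by log2 0.3 it called 28, and of 100 changed by log2 1 it called 89, with 6 false calls. A difference near log2 0.3 can thus often go uncalled. The simulated libraries were independent, so shared library numbers were not modelled.

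Within a label, libraries with the same number deviated together across treatments (r 0.41 to 0.66 floxed-labelled, 0.33 to 0.73 knockout-labelled, 9 pairs each, 8601 genes); across labels they did not (-0.34 to 0.23, 27 pairs). The pairing comes from the data, not the labels.

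The 9 genes and all lists were chosen with earlier results of these data known. A further marker list is not reported here. Also named are Lyz2, Lyz1, Smad1, the coding genes within 1 Mb of Lyz2 and some of the nearest neighbours. The 3 genes most alike in pattern, genes called in all 3 treatments and called list members are named too. Genes near Smad1 are given as counts only. Other neighbours and list members were named after their values were seen. Alternatives were RLE scaling, no filter, a mean of at least 1 CPM, DESeq2 1.42.0, 2 library-number blocks, 15 libraries without the floxed-labelled libraries numbered 1, 2 narrower windows around each locus and each library left out.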

Additional observations from a re-analysis of the deposited data

How the results depend on the processing

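The 27 label differences of the 9 genes kept their value within the replicate spread in all 324 values under the alternatives run. That spread, the SD between libraries of a group, is a wide limit for means of 3 libraries, so the count says little. Within it, St3gal5 with TGF-β1 ran from log2 0.57 to 0.84. Of the values, 1 changed sign, Tle6 with BMP4 without the knockout-labelled library 2 (log2 -0.02). Of 468 alternative values of the 36 ligand responses, 453 kept their call, 9 lost it (8 of Glipr1, 1 of Tulp4), 6 gained it (5 of St3gal5, 1 of Gmfg) and 0 reversed. Rnf17, at 10 to 61 reads, is limited by depth.

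Counts of called genes over the genome moved more. Between labels untreated, 351 became 817 with no low-count filter and 39 in 15 libraries; with TGF-β1, 57 became 30 with RLE scaling, 394 with no filter, 193 with DESeq2 and 2 in 15 libraries; with BMP4, 4 became 287 with no filter and 36 with DESeq2. For BMP4 against untreated, 0 floxed-labelled calls became 69 with no filter, 14 with DESeq2 and 1 in 15 libraries, and 84 knockout-labelled calls became 240, 181 and 43. The cause was not tested. No filter tested 29506 genes.

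With each library left out, the counts between labels ran from 27 (without knockout-labelled untreated library 1) to 613 (without library 2) untreated, 0 to 16 with TGF-β1 and 1 to 5 with BMP4. Responses to BMP4 ran from 0 to 1 floxed-labelled and 4 to 112 knockout-labelled, and to TGF-β1 from 4202 to 4510 and 4352 to 4660.

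With library number as a block over all groups, the counts between labels were 97 with TGF-β1 and 10 with BMP4. With the block within each label, BMP4 calls were 53 floxed-labelled and 472 knockout-labelled; the block changed no other call of the 9 genes than those given for St3gal5 and Gmfg.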
